A study of Bos taurus with 44 samples.

Results

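The last steps of mitochondrial respiration were followed here in the uterine lining of cattle, through the nuclear genes of complex III (ubiquinol-cytochrome c reductase), complex IV (cytochrome c oxidase) and complex V (ATP synthase). The genes were taken by a rule on their names, as every measured gene whose symbol starts with UQCR, with ATP5 or with COX and a digit from 4 to 8, together with CYC1. The array holds 34 of them, 9 of complex III, 12 of complex IV and 13 of complex V, among 8073 genes named by a probe with 1 symbol and 13824 probes in all. CYCS and ATP5PB also fall under these names, but their probes carry several symbols and were not used. RefSeq lists 46 protein-coding cattle genes under these names, and 12 of them, COX6A1, COX6B1 and ATP5F1A among them, have no probe of their own here. No mitochondrially encoded subunit of these complexes has a named probe.

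Complex III takes electrons from ubiquinol and hands them to cytochrome c, complex IV passes them from cytochrome c to oxygen, and both move protons out of the mitochondrial matrix. Complex V lets the protons flow back through a rotating ring and uses that motion to make ATP. The catalytic centres of complexes III and IV rest partly on proteins encoded in the mitochondrial genome, while most small subunits, which assemble and tune the complexes, come from nuclear genes such as those described here. The uterine lining is remodelled in early pregnancy, when it secretes the nutrients that the conceptus takes up before and while the placenta attaches.

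Each of the 44 arrays compared 2 RNA samples of frozen tissue, 1 per dye. The tissue was taken either from caruncles, the knobs of the ruminant lining to which the placenta anchors, or from the intercaruncular stretches that separate them. The groups were pregnancies from artificial insemination (AI), from embryos fertilised in vitro and transferred (IVF-ET) and from somatic cell nuclear transfer (SCNT, cloning), beside CJ animals, which the labels tie to the word cycle. IVF-ET and SCNT had AI animals of their own, under different names, and the sources used here give no day, breed or age of the animals. In each area, 5 IVF-ET and 5 AI animals met on 10 arrays. By their labels, the 5 IVF-ET animals were the same in both areas, as were some of the AI animals. For the intercaruncular area, a further 20 arrays paired 5 SCNT or 4 AI animals with 5 CJ animals, so that SCNT and AI met there only through CJ. In the caruncular area SCNT and AI met directly, on 4 arrays that held 2 pairs of pools in both dyes, and the size of a pool is not stated.

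All values below are log2 ratios or log2 differences, so that 1 stands for a doubling, and each value after ± is the fit's standard error. Only ratios were deposited, so the level of a gene, and whether markers of the tissue were present at all, could not be read. The sign rests on Cy5 over Cy3 as the likely direction of the deposited ratios, because with it the interferon-stimulated genes are above CJ in pregnancy and OXTR is below, as is known of early ruminant pregnancy, and under the other reading every sign turns. Among the intercaruncular animals, AI animal 3, which the labels name on 4 arrays where the other AI animals have 2 each, stood apart. Its median over 19 interferon-stimulated genes was -0.11 against CJ, where the other 3 AI animals lay at 1.73 to 2.16 and the SCNT animals at 1.46 to 2.03, and its median over 12 stromal markers was 0.31, where the other AI animals lay at -1.41 to -1.11. Whether it was a pregnant animal, as its label says, and whether the 4 arrays hold 1 animal cannot be told from the sources used here, so that the count of 4 AI animals rests on the labels. Its median over the 34 respiratory genes was -0.06, within the range of -0.09 to -0.01 of the other AI animals. Single genes departed in both directions, such as UQCR10 at -0.52, where the others lay at 0.35 to 0.64, and COX5A at 0.13, where they lay at -0.42 to -0.24. SCNT animal 4 had the highest median of 11 trophoblast markers, 1.32, where the other SCNT animals had 0.01 to 0.21. In such bulk tissue, fewer cells of a type and less RNA per cell cannot be told apart.

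The intercaruncular lining of SCNT pregnancies had higher ratios of the respiratory genes than that of AI pregnancies. Of the 34 genes, 7 were higher in SCNT at an adjusted p under 0.05 (limma, Benjamini-Hochberg over all probes) and 0 were lower, where 0.253% of all 13824 probes were called higher and 0.0289% lower. They belong to all 3 complexes, with 3 in complex III (UQCR11, UQCRC1, CYC1), 1 in complex IV (COX8A) and 3 in complex V (ATP5MC3, ATP5MC1, ATP5F1D). A difference above 0 was found for 29 of the 34, with a median of 0.39, beside a median of -0.01 over all named genes. The medians of complexes III, IV and V were 0.41, 0.35 and 0.40. At an unadjusted p under 0.05, 21 of the 34 lay above 0 and 0 below, and 767 of the 8073 named genes passed that mark in either direction. In the animals' ratios against CJ, all 5 SCNT animals lay above all 4 AI animals for 10 of the 34 genes, 4 of complex III, 2 of complex IV and 4 of complex V, where 0.897% of all probes showed this. The calls depended on single animals. Without AI animal 3 or without CJ animal 3, 2 genes remained called, without CJ animal 1, CJ animal 4, SCNT animal 2 or SCNT animal 5 there were 4, and without SCNT animal 4 there were 14. UQCR11 and ATP5MC3 passed in all 14 fits that left out 1 animal, and the median of the 34 genes was 0.32 without AI animal 3 and 0.45 without SCNT animal 4. Markers of other cells moved with this comparison: the median difference was -0.85 over 12 stromal markers, of which 1 lay above 0, -0.41 over 9 smooth muscle markers, of which 0 did, 0.31 over 11 trophoblast markers and 0.10 over 10 epithelial markers, and none of these was called. Endothelial and leukocyte markers both had a median difference of -0.07. The stromal medians against CJ were -1.72 to -1.03 in the SCNT animals, a range that holds the 3 AI animals other than animal 3. Without AI animal 3 the median difference was -0.10 over the stromal, -0.03 over the smooth muscle and 0.26 over the trophoblast markers, and without SCNT animal 4 that of the trophoblast markers was 0.07. The part of these cells in the result was not tested.

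**Figure D1:**
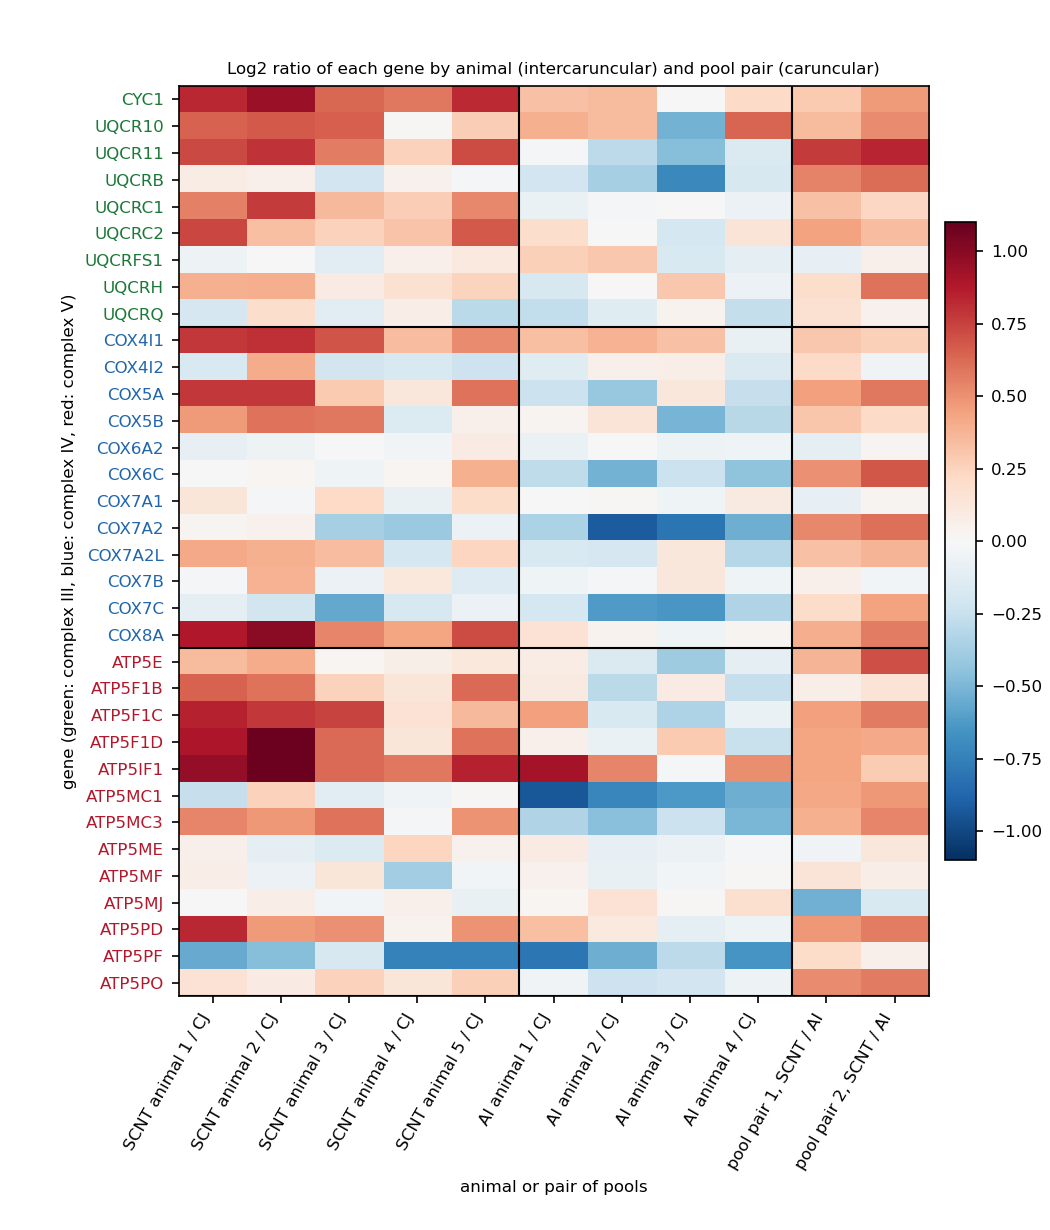
Heat map of the log2 ratio of the 34 genes (rows, grouped as complexes III, IV and V) in each intercaruncular SCNT and AI animal against CJ animals and in each caruncular pair of pools, SCNT over AI (columns); red is above 0 and blue below. Most rows are red in SCNT animals 1 to 3 and 5 and in both pool pairs and pale or blue in the AI animals, while SCNT animal 4 is paler than the other SCNT animals.

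Among the subunits of complex III, UQCR11, a small subunit of the membrane part, had the largest difference of the 34 genes. Its ratios against CJ were 0.73, 0.79, 0.56, 0.25 and 0.72 in SCNT animals 1 to 5 and -0.02, -0.29, -0.47 and -0.16 in AI animals 1 to 4. All SCNT animals lay above CJ and all AI animals below, and SCNT was 1.83-fold higher than AI (log2 difference 0.87 ± 0.12, limma adjusted p = 0.000576). For UQCRC1, a core protein of the complex on the matrix side, the SCNT animals lay at 0.55, 0.77, 0.35, 0.27 and 0.53 and the AI animals at -0.07, -0.02, 0.00 and -0.07. The AI animals sat close to CJ, the groups did not overlap, and SCNT was 1.44-fold higher (0.53 ± 0.08, adjusted p = 0.00433). CYC1, cytochrome c1, carries the haem from which cytochrome c takes its electron. Its ratios were 0.83, 0.95, 0.63, 0.58 and 0.82 in the SCNT and 0.32, 0.35, -0.01 and 0.21 in the AI animals. Here 3 of the 4 AI animals lay above CJ too, though below every SCNT animal, and the difference was 0.57 ± 0.10 (1.49-fold, adjusted p = 0.0106). Without AI animal 3, UQCR11 was at 0.76 (adjusted p = 0.0275), while UQCRC1 at 0.54 (adjusted p = 0.0877) and CYC1 at 0.46 (adjusted p = 0.253) no longer passed.

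The other core protein, UQCRC2, also had no overlap between the groups, with a difference of 0.46 ± 0.11 that missed the threshold (adjusted p = 0.112). UQCRB, which helps form the ubiquinone site, was at 0.41, UQCR10 at 0.34 and UQCRH, the hinge protein that docks near cytochrome c1, at 0.20, none of them called. UQCR10 rested on AI animal 3, which lay at -0.52 where the other AI animals lay at 0.35 to 0.64, and its difference was 0.01 without that animal. UQCRQ was at 0.06 and UQCRFS1, the Rieske iron-sulfur protein, at -0.04. For UQCRFS1 the array has other probes as well, and they disagreed, with 0.03 ± 0.12 (adjusted p = 0.997) on the second and 0.56 ± 0.12 (adjusted p = 0.0395) on the third, which stands for another transcript accession.

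In complex IV the called gene was COX8A, a small membrane subunit in its widely expressed form. The SCNT animals lay at 0.88, 1.00, 0.54, 0.43 and 0.71 against CJ and the AI animals at 0.16, 0.03, -0.05 and 0.03. Every SCNT animal lay above every AI animal, and the AI animals stayed near CJ. The difference was 0.68 ± 0.11 (1.60-fold, adjusted p = 0.00569), and 0.62 without AI animal 3 (adjusted p = 0.0986). COX6C, another small membrane subunit, also had no overlap, from -0.04 to 0.39 in SCNT and from -0.52 to -0.23 in AI animals (0.43 ± 0.11, adjusted p = 0.108). COX5A at 0.66 (adjusted p = 0.0722) and COX5B at 0.52 (adjusted p = 0.154), subunits on the matrix side, and COX7A2 at 0.52 (adjusted p = 0.0722) were not called. COX7C was at 0.25.

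In complex V the 3 called genes encode parts that rotate. ATP5MC1 and ATP5MC3 encode the same mature c protein of the membrane ring with different import sequences, and ATP5F1D encodes the delta subunit of the central stalk. ATP5MC3 had ratios of 0.53, 0.48, 0.60, -0.02 and 0.50 in SCNT and -0.33, -0.46, -0.24 and -0.50 in AI animals. The lowest SCNT animal, animal 4, was still above every AI animal, and the difference was 0.78 ± 0.11 (1.71-fold, adjusted p = 0.000624). ATP5MC1 showed the same gap at a lower position, with -0.26, 0.26, -0.12, -0.04 and 0.01 in SCNT and -0.93, -0.72, -0.63 and -0.54 in AI animals (0.66 ± 0.14, 1.58-fold, adjusted p = 0.0362). The SCNT animals lay around CJ and the AI animals all below it. ATP5F1D lay at 0.89, 1.08, 0.62, 0.13 and 0.60 in SCNT and at 0.06, -0.07, 0.28 and -0.24 in AI animals. SCNT animal 4 overlapped with the AI animals, and the difference was 0.62 ± 0.13 (1.53-fold, adjusted p = 0.0387). ATP5MC3 kept its call without AI animal 3 (0.84, adjusted p = 0.0188), while ATP5MC1 (0.69, adjusted p = 0.107) and ATP5F1D (0.73, adjusted p = 0.117) did not. Calls of ATP5MC1 were lost in 11 and of ATP5F1D in 13 of the 14 fits without 1 animal.

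ATP5PO, the protein that ties the outer stalk to the catalytic head, just missed the threshold (0.33 ± 0.07, adjusted p = 0.0509). It was above CJ in all 5 SCNT animals, at 0.09 to 0.26, and below it in all 4 AI animals, at -0.23 to -0.04. The catalytic beta subunit ATP5F1B (0.51, adjusted p = 0.0695) and the gamma subunit ATP5F1C of the central stalk (0.65, adjusted p = 0.096) were not called. ATP5PF, the F6 protein of the outer stalk, lay at -0.01, and the membrane subunits ATP5MF and ATP5ME at -0.04 and 0.04.

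The 34 differences fell into a spread group and a group near 0. Of the genes, 10 lay within 0.1 of 0, from -0.08 to 0.08, and the other 24 lay between 0.20 and 0.87. The 10 were UQCRFS1, UQCRQ, COX4I2, COX6A2, COX7A1, COX7B, ATP5ME, ATP5MF, ATP5MJ and ATP5PF. The correlation of the 2 spots of a probe over the 44 arrays was 0.04 to 0.90 in these 10 (median 0.58), and 0.70 to 0.97 in the other 24 (median 0.94), beside a median of 0.73 over all probes. A gene that varies little between samples also has a low spot correlation, so that a weak probe and a steady gene cannot be told apart from these values. ATP5PF and ATP5MF are exceptions, with spot correlations of 0.90 and 0.81, above the median of all probes. ATP5PF varied against CJ, as described below. UQCRFS1 is placed near 0 by its chosen probe only, and its other probes disagreed. The probe given above at 0.56 between SCNT and AI was called in SCNT against CJ too (0.38, limma adjusted p = 0.00392). In the pools that probe lay at 0.34 (adjusted p = 0.246). The remaining probe lay at 0.03, 0.04 and 0.24 in the same comparisons, with no call. Whether UQCRFS1 belongs near 0 is therefore not settled.

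Summed up by animal, the medians of the 34 genes against CJ were 0.37, 0.39, 0.23, 0.06 and 0.24 in SCNT animals 1 to 5 and -0.01, -0.08, -0.06 and -0.09 in AI animals 1 to 4. SCNT animals 1 and 2 were the highest and animal 4 the lowest of their group. The order was similar in complex V (0.35, 0.41, 0.26, 0.06 and 0.26) and complex III (0.55, 0.40, 0.25, 0.16 and 0.27). Complex IV had another order, at 0.08, 0.39, 0.11, -0.06 and 0.15, with animal 1 the second lowest and animal 4 within the range of -0.21 to -0.01 of the AI animals.

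**Figure D2:**
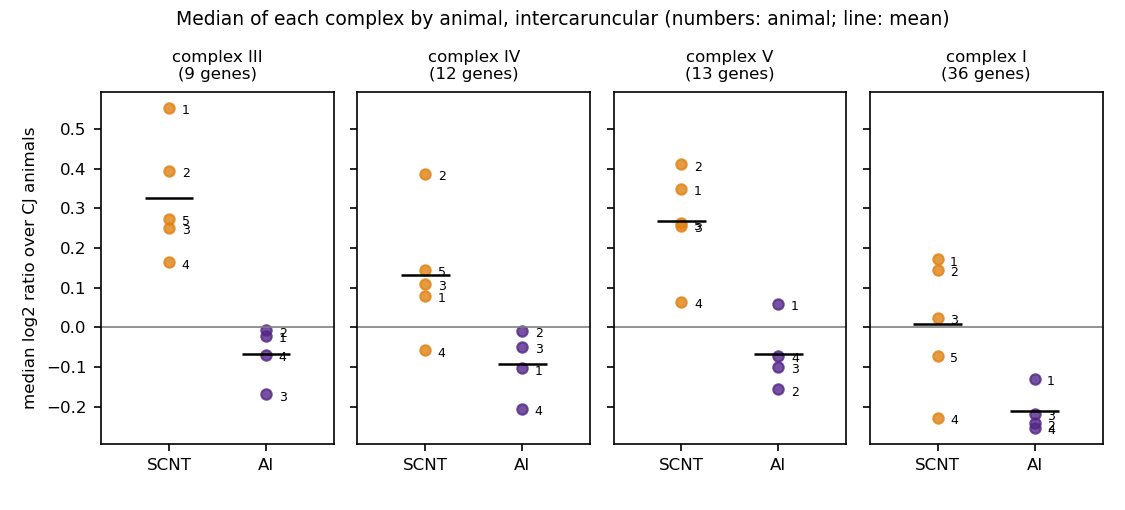
Median log2 ratio against CJ animals over the genes of complexes III, IV, V and, for comparison, complex I, with 1 point per intercaruncular animal, its number beside it, and the group mean as a line. For complex III all SCNT animals (0.16 to 0.55) lie above all AI animals (-0.17 to -0.01), for complex V SCNT animal 4 and AI animal 1 lie close to each other (0.06 and 0.06), and for complexes IV and I SCNT animal 4 falls among the AI animals.

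The 2 arms of this comparison can be read one by one. Against CJ animals, SCNT had 17 of the 34 genes higher and 1 lower, where 10.4% of all probes were called higher and 11.3% lower, with a median of 0.21. Complex III gave 6 of the higher genes, complex IV 4 and complex V 7. AI against CJ had 2 genes higher and 7 lower, where 6.92% of all probes were called higher and 8.08% lower, with a median of -0.04. Both arms share the CJ animals, so that their values are given side by side without a test of their overlap. The stromal markers had a median of -1.44 in SCNT and -0.53 in AI against CJ, with 9 and 5 of 12 called lower. The AI value rested on animal 3, and without it the median was -1.12 with 8 of 12 called lower. Of 10 epithelial markers, 5 were called higher and 1 lower in SCNT, and 2 higher and 0 lower in AI. Smooth muscle markers had 5 of 9 called lower in SCNT and 3 in AI, and trophoblast markers 4 of 11 called higher in SCNT, or 2 without SCNT animal 4, and 0 in AI. The part of these cells in the counts was not tested.

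CYC1 had the smallest p of the 34 genes in the SCNT arm, with a difference from CJ of 0.76 ± 0.08 (1.69-fold, adjusted p = 9.05e-07). In AI animals it was at 0.19 (adjusted p = 0.141), and without AI animal 3 it was called there too, at 0.31 (adjusted p = 0.0325). COX4I1, the widely expressed form of subunit 4, through which ATP is known to slow the enzyme, was higher in both arms, at 0.63 ± 0.07 in SCNT (adjusted p = 3.33e-06) and 0.25 ± 0.08 in AI (adjusted p = 0.0269). Its ratios were 0.78, 0.80, 0.69, 0.34 and 0.52 in the SCNT and 0.34, 0.38, 0.32 and -0.08 in the AI animals, and SCNT animal 4 lay among the AI animals. ATP5IF1, the inhibitor that keeps ATP synthase from running backwards when respiration fails, was higher in both arms too. It lay at 0.97, 1.08, 0.62, 0.58 and 0.85 in SCNT (0.82 ± 0.12, 1.76-fold, adjusted p = 4.2e-05) and at 0.91, 0.54, -0.02 and 0.51 in AI animals (0.42 ± 0.12, adjusted p = 0.0258). AI animal 1 lay within the SCNT range, animals 2 and 4 just below it and animal 3 at the level of CJ, and the difference between SCNT and AI was 0.40 (adjusted p = 0.49), or 0.16 without AI animal 3.

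COX8A (0.71), UQCRC1 (0.49), UQCR11 (0.61), UQCRC2 (0.46) and ATP5F1D (0.66) were higher in SCNT than in CJ animals and not called in AI, where they lay at 0.03, -0.03, -0.26, 0.00 and 0.05. The catalytic and stalk subunits ATP5F1B (0.45), ATP5F1C (0.58) and ATP5PD (0.47) and the oxidase subunit COX5A (0.51) were called in SCNT as well, with AI at -0.06, -0.07, 0.05 and -0.15. UQCR10, COX5B, ATP5PO and UQCRH completed the higher genes, and these 4 lost their call in at least 1 of the 14 fits without 1 animal, while 13 of the 17 kept it in all of them.

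Of the 7 genes lower in AI than in CJ animals, 5 were not called in SCNT. ATP5MC1 was at -0.69 ± 0.11 in AI (adjusted p = 0.000169) and at -0.03 in SCNT. COX7A2, the widely expressed form of subunit 7A, lay at -0.34, -0.92, -0.81 and -0.53 in the AI animals (-0.67 ± 0.09, 1.59-fold, adjusted p = 5.39e-05). In the SCNT animals it lay at 0.03, 0.05, -0.36, -0.40 and -0.07, so that animals 3 and 4 came down to the level of AI animal 1. COX7C (-0.47 ± 0.11, adjusted p = 0.00503), COX6C (-0.35 ± 0.08, adjusted p = 0.00578) and UQCRB (-0.41 ± 0.11, adjusted p = 0.0144) were lower in AI, and lay at -0.22, 0.08 and -0.01 in SCNT with no call. Without AI animal 3, or without CJ animal 5, COX7C and UQCRB were no longer called. The AI arm had 0 genes higher and 5 lower without CJ animal 5, and 2 higher and 5 lower without AI animal 3. The 2 higher genes without AI animal 3 were ATP5IF1 (0.66, adjusted p = 0.00144) and CYC1, while COX4I1 was not called (0.22, adjusted p = 0.169). The higher calls in AI were less settled, since that of COX4I1 was lost in 6 and that of ATP5IF1 in 7 of the 14 fits without 1 animal. ATP5MC3 was the only gene called in opposite directions, at 0.42 ± 0.08 in SCNT (adjusted p = 0.00073) and -0.36 ± 0.08 in AI (adjusted p = 0.00497). ATP5PF was the only gene called lower in both arms, at -0.54 ± 0.10 in SCNT (adjusted p = 0.000486) and -0.53 ± 0.10 in AI (adjusted p = 0.00127). Every one of the 9 animals lay below CJ for it, from -0.75 to -0.18 in SCNT and from -0.80 to -0.29 in AI animals.

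**Figure D3:**
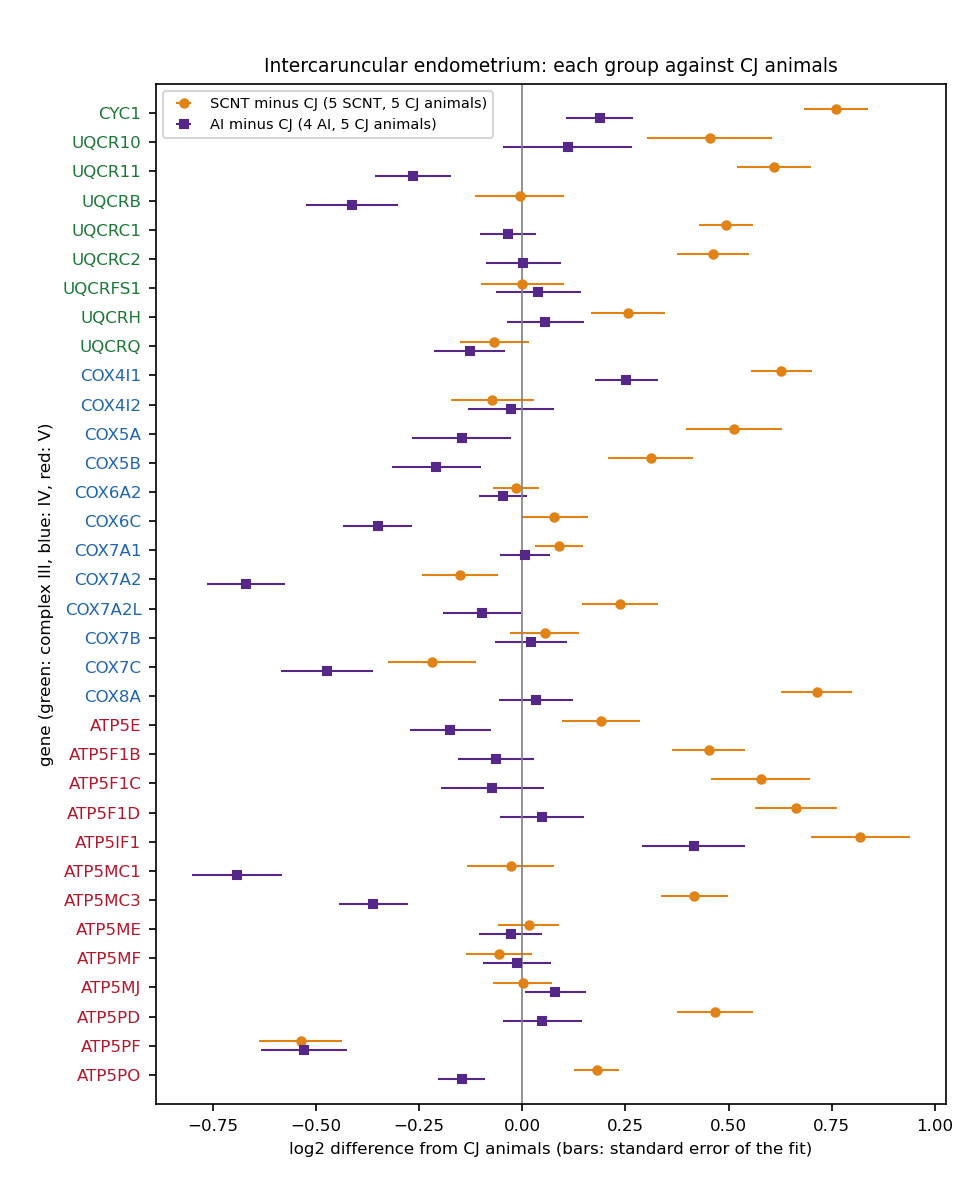
Log2 difference from CJ animals of each of the 34 genes in SCNT (circles) and AI (squares), intercaruncular, with standard errors; gene names are coloured by complex. CYC1, COX8A, ATP5F1D and UQCR11 lie at 0.61 to 0.76 in SCNT and at -0.26 to 0.19 in AI, COX4I1 and ATP5IF1 lie right of 0 in both, COX7A2 and ATP5MC1 lie far left in AI, and ATP5PF lies left in both groups.

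The caruncular pools allow a second look at SCNT against AI, on other arrays and without CJ. None of the 34 genes was called (limma on 2 pair means, adjusted p), and 0% of all probes were called higher and 0% lower. At an unadjusted p under 0.05, 23 of the 34 lay above 0 and 1 below, beside 1147 of the 8073 named genes in either direction. The difference was above 0 for 30 of the 34 genes, with a median of 0.37 beside 0.00 over all named genes, and for 27 genes both pairs of pools lay above 0, which was so for 31.2% of all named genes. The medians of complexes III, IV and V were 0.39, 0.30 and 0.42. Whether the pools hold RNA of the animals measured in the intercaruncular area is not stated in the labels.

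UQCR11 again led, with 0.77 and 0.83 in the 2 pairs (0.80 ± 0.08, adjusted p = 0.0997). UQCRB lay at 0.55 and 0.61, COX7A2 at 0.53 and 0.61, COX6C at 0.50 and 0.69 and ATP5PO at 0.52 and 0.57 (adjusted p of 0.127 for each). These are genes for which the 2 pairs lay close together, and all but COX6C varied by no more than 0.1 between pairs. ATP5MC3 was at 0.39 and 0.54 and ATP5MC1 at 0.43 and 0.48. ATP5MJ, a small membrane subunit, went the other way, at -0.53 and -0.17 (-0.35 ± 0.11, adjusted p = 0.312). ATP5F1B differed between the areas, with 0.11 ± 0.08 in the pools and 0.51 ± 0.12 in the intercaruncular animals, but this difference was not tested. Across the 34 genes the differences in the pools and in the intercaruncular animals had a Pearson correlation of 0.79, and 29 genes had the same sign in both, beside a correlation of 0.17 over the 8073 named genes. This describes genes that share arrays and animals and carries no test. The 10 genes near 0 in the intercaruncular area lay between -0.35 and 0.13 in the pools and the other 24 between 0.11 and 0.80. The median of trophoblast markers was 1.41 in the first pair and 0.05 in the second, and the medians of the 34 respiratory genes were 0.33 and 0.40. Epithelial markers had a median of -0.39 with 0 of 10 above 0. The part of these cells in the result was not tested.

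**Figure D4:**
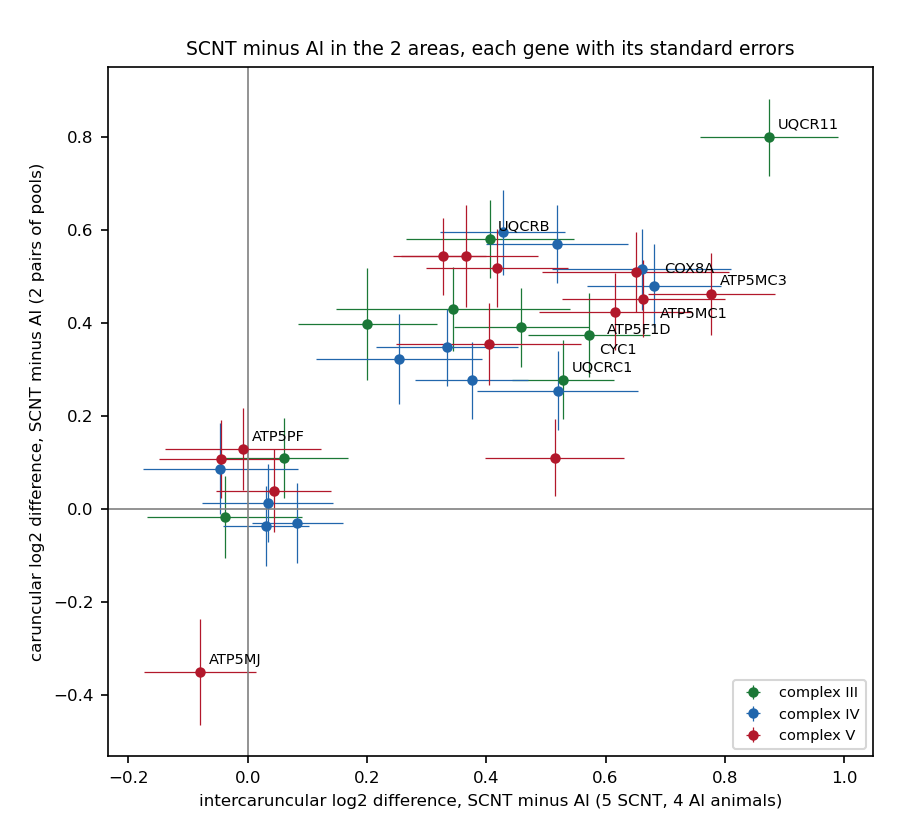
Log2 difference SCNT minus AI of each of the 34 genes in the intercaruncular area (horizontal axis, through CJ animals) and in the caruncular pools (vertical axis, 2 pairs), with standard errors and coloured by complex. UQCR11 lies at the upper right (0.87 and 0.80), a cloud of 24 genes lies above 0 on both axes, and a second cloud lies around 0 with ATP5MJ below it. UQCRFS1 is drawn from its chosen probe only. Its other probes had 0.03 and 0.56 in the intercaruncular area and 0.24 and 0.34 in the pools.

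Isoforms of the same subunit differed in what they showed. COX4I1 was called in both arms against CJ, while COX4I2, the form known from lung and from low oxygen, lay at -0.07 in SCNT and -0.03 in AI (spot correlation 0.62). COX7A2 was lower in AI than in CJ, while the muscle form COX7A1 lay at 0.01 in AI and 0.09 in SCNT (spot correlation 0.34), and COX7A2L, which joins complexes III and IV into larger assemblies, at -0.10 and 0.24 with no call. COX6A2, also a muscle form, lay at -0.02 in SCNT and -0.05 in AI with a spot correlation of 0.04, and its counterpart COX6A1 was not measured by a probe of its own. ATP5MC1 and ATP5MC3 differed in position against CJ, with ATP5MC1 at -0.03 and ATP5MC3 at 0.42 in SCNT, but had like differences between SCNT and AI in both areas.

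IVF-ET pregnancies differed less from AI, and the ratios leaned the other way. In the caruncular area 1 of the 34 genes was called lower and 0 higher, where 0.0217% of all probes were called lower and 0% higher. The gene was ATP5F1C, the gamma subunit that turns inside the head of ATP synthase, which had the smallest p of all 13824 probes. Its ratios were -0.57, -0.43, -0.49, -0.57 and -0.52 in IVF-ET animals 1 to 5 against the AI animals they were paired with. All 5 animals lay below AI, by like amounts, and the difference was -0.51 ± 0.07 (1.43-fold, adjusted p = 0.0232). Each AI animal was on 2 arrays with different IVF-ET animals, so that these 5 values are not independent. The call was lost in 9 of 10 fits without 1 animal, with an adjusted p of up to 0.272 and differences of -0.56 to -0.48, and it was kept only without IVF-ET animal 2. ATP5MC3 (-0.32 ± 0.08, adjusted p = 0.334), UQCRC2 (-0.23 ± 0.07, adjusted p = 0.41) and ATP5F1D (-0.29 ± 0.10, adjusted p = 0.433) came next and were not called, and for ATP5MC3 and UQCRC2 all 5 animals lay below 0 (-0.46 to -0.18 and -0.37 to -0.13). In complex IV the smallest p was that of COX7A2 (-0.20, adjusted p = 0.612). The median of the 34 genes was -0.09, with 7 above 0. Beside this, 11 trophoblast markers had a median of 0.34 with 9 above 0, 9 of 10 epithelial markers lay above 0 (median 0.15), and 18 of 19 interferon-stimulated genes lay below 0 (median -0.20). The 12 stromal markers had a median of -0.10 with 3 above 0, 9 smooth muscle ones 0.08 with 6 above 0, and 9 endothelial ones -0.07 with 4 above 0. None of these was called, and their part in the result was not tested.

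In the intercaruncular area none of the 34 genes was called by limma, where 0.00724% of all probes were called higher and 0% lower. At an unadjusted p under 0.05, 4 of the 34 genes lay below 0 and 0 above. The median was -0.08, again with 7 genes above 0, and it was -0.02 without AI animal 4 and -0.13 without AI animal 3 of this comparison. Of the markers, 9 endothelial ones had a median of 0.19 with 7 above 0, 10 trophoblast ones a median of 0.17 with 9 above 0, and 12 stromal ones a median of 0.09 with 11 above 0. The 9 smooth muscle markers had a median of 0.10 with 7 above 0, and 10 epithelial ones -0.07 with 3 above 0. Of 19 interferon-stimulated genes, 16 lay above 0 here (median 0.11). None of them was called, and their part in the result was not tested. COX7A2 lay at -0.19, -0.22, -0.19, -0.32 and -0.49 in IVF-ET animals 1 to 5 (-0.28 ± 0.09, adjusted p = 0.458), below 0 in each. UQCR10 (-0.25 ± 0.08, adjusted p = 0.459) and ATP5E, the epsilon subunit (-0.37 ± 0.12, adjusted p = 0.469), had the next smallest p. Several genes had a wide spread among these animals. UQCR11 lay at 0.06, 0.20 and 0.04 in IVF-ET animals 1 to 3 and at -0.91 and -0.67 in animals 4 and 5, and COX8A at 0.12, 0.20 and 0.14 in the first and at -0.79 and -0.57 in the others. ATP5MC1 showed the same split, with 0.14, 0.33 and 0.25 against -0.70 and -0.65. Each AI animal was on 2 arrays with different IVF-ET animals, so that every IVF-ET value shares partners with others and is not independent. IVF-ET animals 4 and 5 share AI animal 4, on 1 array each. For UQCR11 they lay at -0.85 and -0.82 against that animal and at -0.98 and -0.51 against their other partners, AI animals 2 and 3, which gave -0.07 and 0.47 with IVF-ET animals 3 and 2. Without AI animal 4 the difference between IVF-ET and AI was -0.11 for UQCR11, where it was -0.26 with all animals, and -0.07 for COX8A, where it was -0.18. ATP5F1C was at 0.00 ± 0.16 here. The difference between the areas was tested in 1 fit over both, in which 0 of the 34 genes were called, where 0% of all probes were called higher and 0.00723% lower, and ATP5F1C had a difference of -0.52 ± 0.19 (adjusted p = 0.747). That fit took the areas of an animal as separate animals. The lower ratio of ATP5F1C in caruncular tissue is thus not shown to differ from intercaruncular tissue.

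**Figure D5:**
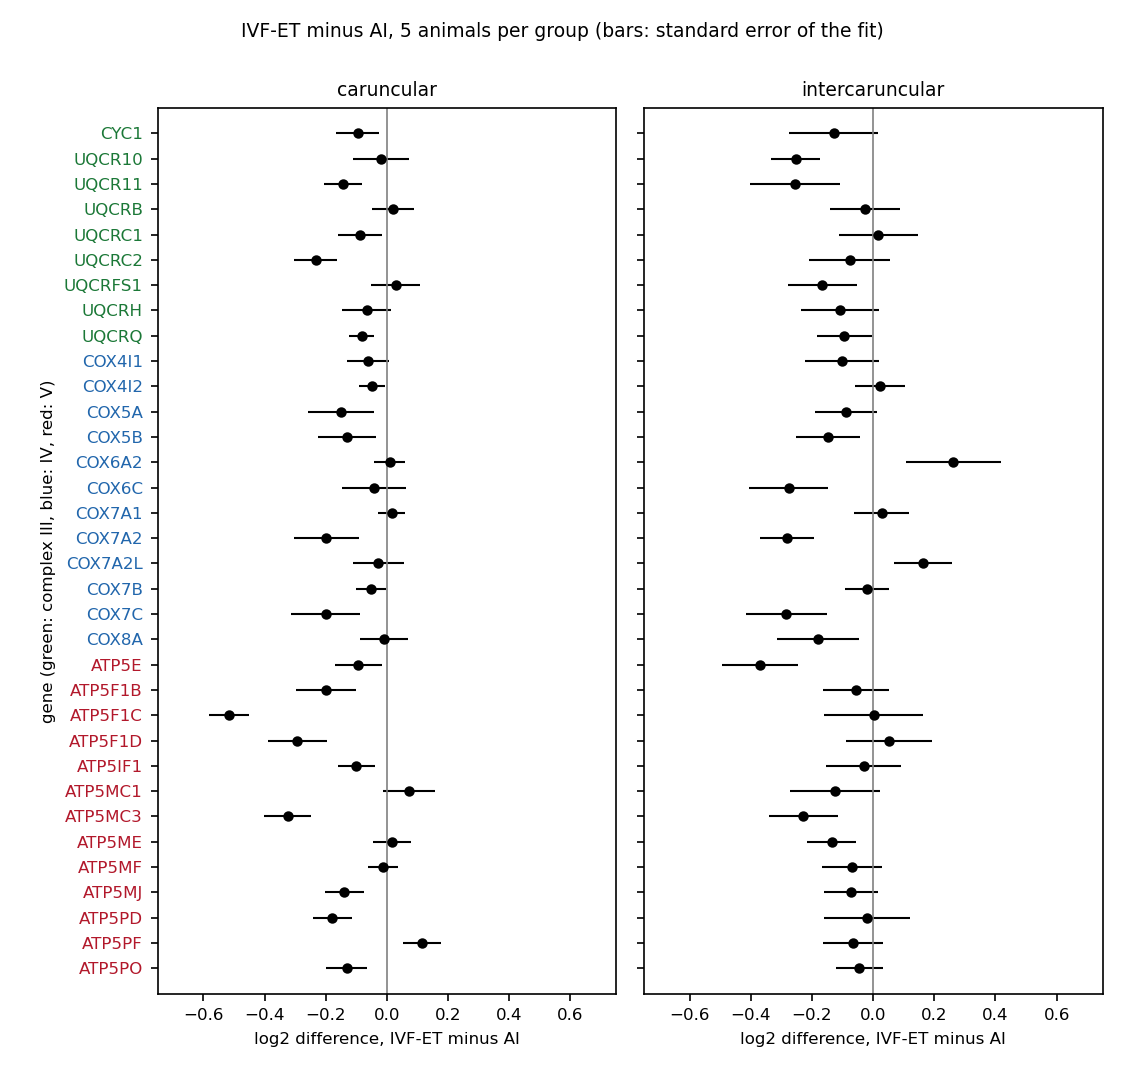
Log2 difference IVF-ET minus AI of each of the 34 genes in the caruncular and the intercaruncular area, with standard errors and 5 animals per group. ATP5F1C stands apart at -0.51 in the caruncular area and lies at 0.00 in the intercaruncular area, and most other genes lie a little below 0 in both.

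Neighbouring parts of mitochondrial metabolism were read on the same arrays, from lists chosen with earlier results of these data known. Of 36 genes of complex I, which feeds electrons from NADH into the chain, 1 was higher in SCNT than in AI in the intercaruncular area (NDUFB6, 0.55 ± 0.10, adjusted p = 0.0172), 33 lay above 0, and the median was 0.26. Against CJ they differed from complexes III to V: SCNT had 3 higher and 3 lower with a median of 0.00, and AI had 0 higher and 13 lower with a median of -0.20, where NDUFA5 was at -0.67. This contrast between the complexes was not tested. In the pools 35 of the 36 lay above 0, with a median of 0.29. All 4 measured genes of complex II, which feeds electrons from succinate, lay above 0 between SCNT and AI in both areas (median 0.35 and 0.22), and SDHD, a membrane anchor, was higher in SCNT than in CJ (0.48 ± 0.08, adjusted p = 0.000135).

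The assembly factors of complexes III, IV and V had medians of 0.06, 0.02 and 0.07 between SCNT and AI, and 0 of 5, 17 and 6 were called. BCS1L, which inserts the Rieske protein into complex III, was lower than CJ in both arms, at -0.38 in SCNT and -0.35 in AI, as was SLIRP, which binds mitochondrial messenger RNA, at -0.36 and -0.37. Other factors went up: in SCNT against CJ, 0, 2 and 1 of the factors of complexes III, IV and V were called higher and 1, 2 and 0 lower. In AI against CJ, 0 were called higher in each list, and 2, 3 and 0 lower. Of 13 genes of the citric acid cycle, 1 was higher in SCNT than in AI, the malate dehydrogenase MDH2 (0.68 ± 0.12, adjusted p = 0.0109), and 11 lay above 0. Against CJ, SCNT had 2 of the 13 higher and 1 lower (median 0.01), and AI had 1 higher and 5 lower (median -0.22). Of 30 genes of mitochondrial import, membranes and chaperones, 1 was higher in SCNT than in AI, CHCHD2 (0.69 ± 0.11, adjusted p = 0.00283), known as a regulator of COX4I2 and of complex IV, and 24 lay above 0 with a median of 0.18. For these 30, SCNT against CJ had 5 higher and 5 lower (median -0.04), and AI against CJ 1 higher and 11 lower (median -0.16). The regulators of mitochondrial biogenesis, such as TFAM, which packages and transcribes mitochondrial DNA, had 0 of 18 called between SCNT and AI and a median of 0.02. Against CJ, 2 of them were called higher and 2 lower in SCNT, and 1 higher and 0 lower in AI. The 13 genes of antioxidant defence and uncoupling likewise had a median of 0.02 and 0 called between SCNT and AI. In SCNT against CJ, 3 of these 13 were called higher and 2 lower, and in AI against CJ 1 higher and 1 lower.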

How the data were processed

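For every spot the authors deposited a log2 ratio between the dyes, with no numerator stated. How they corrected background and normalized is not given in the sources used here. Spot intensities were not analysed here, and no normalization was added. The 27648 spots are 13824 probes with 2 spots each, which were averaged. Where a gene had several probes, the one with the fewest missing values, then the first, stood for it. Gene symbols came from the supplied platform annotation, and 32 of the 34 Entrez numbers had the same symbol in RefSeq.

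Tests used limma 3.58.1 (R 4.3.3) on probes measured on 80% or more of the arrays. The model held a term for the dye and, through generalised least squares, a shared correlation between arrays with a common animal, estimated as 0.13 for caruncular IVF-ET, 0 for intercaruncular IVF-ET and for both areas jointly, and 0.12 for the arrays with CJ. Arrays were the fitted values, and the animal entered as the replicate only through this shared correlation. Where it was 0, arrays that share an animal counted as independent. AI animal 3, with 4 arrays, weighed more than each other AI animal paired with CJ. With a correlation of 0.4 fewer genes were called, as given below. SCNT, AI and CJ came from 1 fit. Each dye-swapped pair of pools was averaged, and the 2 means were tested against 0. P-values were adjusted by Benjamini-Hochberg over all probes, with 0.05 as the threshold. An animal's value is the mean of its arrays, and the number of arrays limits the precision. Among the 34 genes, all past the threshold between SCNT and AI and the 4 with the smallest p per complex elsewhere were given first. The fit was tried on simulated data with normal errors and 1 correlation for all probes, as the model assumes. Such data cannot show whether that correlation suits the measured genes. Alternatives changed the correlation, the dye term, the scaling, the spots, the probes, the threshold and the animals. The genes and lists were chosen with earlier results of these data known.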

Additional observations from a re-analysis of the deposited data

Results flagged for a closer look

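In 136 groups of animals (34 genes in 4 groups each), the highest or lowest animal was tested by Dixon's ratio, and 6 values passed its critical value. Chance alone gives about 1 group in 20, so that 6 of 136 are no more than chance would give. In the SCNT animals against CJ, COX4I2 was at 0.41 in animal 2 and at -0.23 to -0.17 in the other 4, COX6C was at 0.39 in animal 5 and at -0.04 to 0.02 in the others, and COX7C was at -0.56 in animal 3 and at -0.20 to -0.06 in the others. ATP5MC3 was at -0.0215 in SCNT animal 4, while the other 4 lay at 0.48 to 0.60. In the AI animals against CJ, COX4I1 was at -0.0798 in animal 4 and at 0.32 to 0.38 in the others, and COX7B was at 0.13 in animal 3 and at -0.05 to -0.02 in the others.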

How the results depend on the processing

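The number of respiratory genes called was sensitive to the settings, while no called gene changed its sign under the alternatives run. For SCNT versus AI, intercaruncular, 7 genes became 4 at an adjusted p under 0.01, 12 at 0.10, 2 with a correlation of 0.4 between arrays that share an animal, 4 with the second spot only, and 2 to 14 without 1 animal. For SCNT versus CJ, 18 calls became 10 with a correlation of 0.4, and without 1 animal there were 14 to 18. For AI versus CJ, 9 calls became 2 with a correlation of 0.4 and 5 to 10 without 1 animal. In the pools, 0 calls became 1 at an adjusted p under 0.10 and 1 with the first spot only, and scale normalization between arrays moved the median from 0.37 to 0.45. For IVF-ET versus AI, caruncular, the 1 call became 0 at 0.01, with a correlation of 0.4, without the dye term, after scale normalization, with the first spot and with the second spot, and was 0 to 1 without 1 animal. Scale normalization moved its median to -0.133 and that of the difference between the areas to -0.0731. The cause of these changes was not tested. Linking the areas through shared animals changed nothing, since the estimated correlation was 0. Over single genes and settings, 4760 labels were unchanged, 143 lost a call and 27 gained one. The unchanged labels include genes with no call to lose, and pool values from 1 pair, which have no p-value. The 143 are therefore a larger share of the calls that could be lost than of all labels. Low spot agreement limits COX6A2 and COX7A1, at 0.04 and 0.34.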
